A study of Mus musculus with 12 samples.

Results

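The genes described here were picked by name, and most encode proteins of the nucleolus that build ribosomes. They were the 49 genes of the 24562 in the count table whose symbols begin with Nop, Utp, Rrp or Nol and a digit, are Noc2l, Noc3l, Noc4l, Imp3 or Imp4, or are Fbl, Dkc1, Ncl, Npm1, Nolc1, Bop1, Pes1 or Wdr12. Of these, Nol3, Nol4 and Nol4l match by name only and are not established ribosome assembly genes. The 49 were read beside Rn45s, the gene of the ribosomal RNA precursor. RNA-Seq was performed on 12 pools of oocytes from CD-1 mice, with 3 pools in each of 4 cohorts taken at postnatal day (PND) 13, 16 and 40. PND 16 mice were separated by body weight into a PND 16 small and a PND 16 large cohort, and no mouse was stimulated with hormones. The oocytes had an intact germinal vesicle, came from antral follicles and had been freed of cumulus cells, and each pool held 18 to 45 of them. The oocytes of a cohort came from 3 mice. PND 16 large and PND 40 oocytes were treated as meiotically competent and PND 13 and PND 16 small oocytes as non-competent, a comparison of 6 pools vs. 6 pools. The label of these cohorts as oocytes was met by their markers, since all 10 oocyte markers examined were detected and their summed level was 14879 to 19241 CPM in the 12 pools.

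Ribosomes are assembled in the nucleolus around a long precursor RNA transcribed by RNA polymerase I. Small nucleolar ribonucleoproteins (snoRNPs) modify this precursor, the small subunit processome folds and cuts its first part, and separate sets of factors mature the part that becomes the large subunit. Growing oocytes are known for a large, active nucleolus, and fully grown oocytes for a compact one in which ribosomal RNA synthesis has declined.

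Total counts per pool ranged from 17671193 to 27418358, and 13943 genes passed a filter on low counts. Of the 49 nucleolar genes 47 passed, and Fbl and Nol3 did not. Levels are given as CPM, counts relative to the total of the pool after TMM scaling. A gene was called changed at an adjusted p of at most 0.05 in edgeR's quasi-likelihood test together with at least a 1.5-fold difference. PND 13 replicates 1 and 3 and PND 16 small replicate 2 stood apart by granulosa cell transcripts. The 15 granulosa and cumulus markers, all detected, summed to 757, 877 and 934 CPM in these 3 pools and to 402 to 547 CPM in the other 9. Serpine2, at 199 to 331 CPM, and Nr5a2, at 87.9 to 146 CPM, were present in every pool. Serpine2 was lowest in PND 13 replicate 1. In PND 13 replicate 2 they stood at 270 and 87.9 CPM and made up most of the sum of 402 CPM. Inha, a granulosa cell hormone subunit, was at 97.1, 143 and 130 CPM in the 3 pools and at 2.34 to 20.7 CPM in the others. Called values below are therefore also given without these 3 pools wherever that ended a call or moved a value by more than 1.5 times. Among called genes this was read for Rn45s, Bop1, Nol4, Nol11, Nop2, Nop16, Nop53, Rrp1 and Utp23. It was not read for Utp14b, Rrp7a or the genes of the wider assembly pathway. Leaving the 3 pools out leaves PND 13 replicate 2 alone in its cohort. Each pool is bulk RNA, so that fewer cells of a type and less RNA per cell cannot be told apart.

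The promoters of 5 of these genes are shown because they hold the E-box CACGTG, the site read by Myc and related factors, in genes that fell (Nol11, Nop2, Utp14b) and in genes that rose (Pes1, Utp18). The sequences are RefSeq promoters on GRCm38.p6, read 5′ to 3′ on the strand of the gene. Capitals mark CACGTG and the ETS family motif CCGGAAG or its complement CTTCCGG. The windows lie at chr11:107189352-107189481 (minus strand) for Nol11, chr6:125131783-125131912 (plus) for Nop2, chr1:78658340-78658469 (plus) for Utp14b, chr11:3963875-3964004 (plus) for Pes1 and chr11:93885737-93885866 (minus) for Utp18.
Nol11: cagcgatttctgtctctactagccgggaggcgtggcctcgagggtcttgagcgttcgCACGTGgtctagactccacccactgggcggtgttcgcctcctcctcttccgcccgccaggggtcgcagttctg
Nop2: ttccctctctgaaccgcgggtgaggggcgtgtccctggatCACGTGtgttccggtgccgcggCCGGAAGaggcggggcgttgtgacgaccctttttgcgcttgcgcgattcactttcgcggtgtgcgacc
Utp14b: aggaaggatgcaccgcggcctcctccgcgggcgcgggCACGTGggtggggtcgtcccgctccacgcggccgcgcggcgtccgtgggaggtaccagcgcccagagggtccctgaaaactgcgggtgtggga
Pes1: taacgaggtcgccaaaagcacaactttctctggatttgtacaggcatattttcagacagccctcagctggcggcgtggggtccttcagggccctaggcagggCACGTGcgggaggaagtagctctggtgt
Utp18: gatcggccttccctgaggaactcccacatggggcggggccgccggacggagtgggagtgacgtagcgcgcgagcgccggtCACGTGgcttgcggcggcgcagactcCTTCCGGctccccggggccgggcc

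RefSeq promoter entries were found for 37 of the nucleolar genes, 45 entries of 300 bases in all. Both strands of each entry were searched. CACGTG was present in 8 of the 45 entries (17.8%), and in 7.15% of all 32851 promoters of the same length. The ETS motif CCGGAAG was present in 13 entries (28.9%, against 8.86% of all promoters) and TCTCGCGA in 4 (8.89%, against 0.995%). These are counts of entries and not of genes. Noc2l and Rrp36 each counted with 2 overlapping entries for the ETS motif, as did Nol9 for TCTCGCGA. CCAAT was present in 14 entries (31.1%, against 37.4%) and the YY1 motif GCCATNTTG in 1 (2.22%, against 2.51%). The entries with CACGTG belonged to Imp4, Nol11, Nop2, Pes1, Rrp7a, Utp14b, Utp18 and Utp20. Of these 8 genes, 4 passed the adjusted p as lower and 4 as higher in at least 1 of the 7 comparisons below, which share pools. By the same criterion 25 of the 47 nucleolar genes tested passed, 11 of the 29 tested genes with a promoter entry but no CACGTG, and 51.3% of all genes. Such a match is a description of the letters in the window and not a bound site.

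Rn45s fell from non-competent to competent oocytes. Its level was 22632, 14332 and 22557 CPM in the 3 PND 13 pools and 14721, 30173 and 28372 CPM in the PND 16 small pools. It was 9925, 7204 and 6564 CPM in the PND 16 large pools and 5834, 5195 and 5498 CPM in the PND 40 pools. Every competent pool was thus below every non-competent pool. The log2 fold change was -1.85 (SE 0.28, adjusted p = 0.00105, edgeR) in PND 40 vs. PND 13, and -2.06 to -1.38 over the alternatives run. The log2 fold change was -1.72 (SE 0.21, adjusted p = 0.000107, edgeR) in competent vs. non-competent oocytes. It was -1.33 in PND 16 large vs. PND 13 (adjusted p = 0.00797), and without the 3 pools high in granulosa markers that value was -0.86 with an adjusted p of 0.186, so the call was lost. Ribosomal RNA had been depleted from every sample before the libraries were made, so these counts are what depletion left behind, and the part of depletion in the difference was not tested. PND 13 replicate 2 and PND 16 small replicate 1, which had the lowest Rn45s of the non-competent pools, also had the lowest Inha, at 2.34 and 4.42 CPM. Inha and Rn45s did not go together in all pools. PND 16 small replicate 3, with Rn45s at 28372 CPM, had Inha at 16.5 CPM. The competent pools, all lower in Rn45s, had Inha at 11.4 to 20.7 CPM. The part of granulosa cell RNA in Rn45s was not tested.

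The summed level of the 49 nucleolar genes showed no such decrease. The sum was 2861 to 3235 CPM in the non-competent pools and 3066 to 3309 CPM in the competent pools. The ranges overlap only through PND 16 small replicate 3, at 3235 CPM. Every other non-competent pool, at 2861 to 3065 CPM, was below every competent pool, the nearest by a narrow margin. Over the 47 genes tested, the median log2 fold change was 0.17 in PND 40 vs. PND 13, beside 0.0044 over all genes tested, and 0.11 in competent vs. non-competent oocytes, beside -0.0046. Among genes of at least 10 CPM it was 0.19 over 40 nucleolar genes, beside 0.07 over all, in PND 40 vs. PND 13 and 0.12, beside 0.06, in competent vs. non-competent oocytes. The cohort means of 36 of the 47 genes (76.6%) lay within 1.5-fold of each other. Among all genes tested 47.3% did, and among genes of at least 10 CPM 70.6%, against 34 of the 40 nucleolar genes (85%) at that level.

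**Figure D1:**
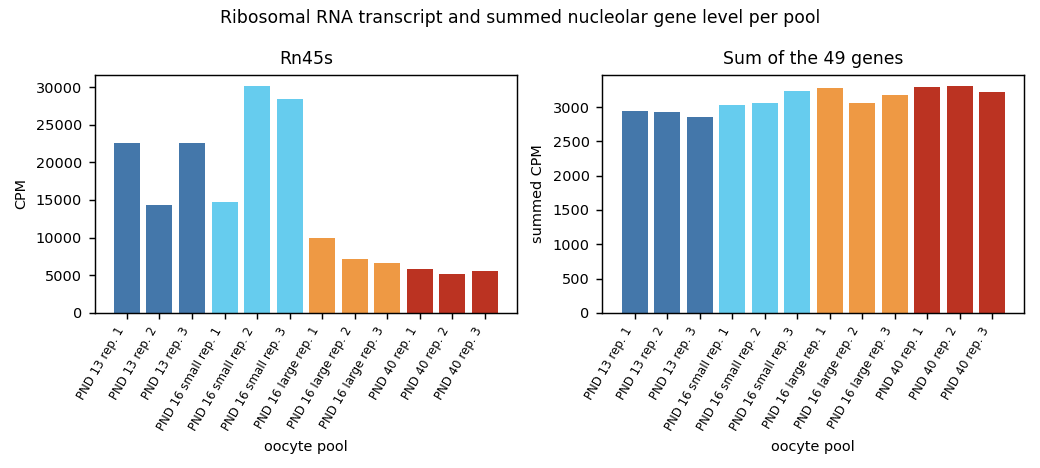
Rn45s (left) and the sum of the 49 nucleolar genes (right) in each oocyte pool, in CPM, coloured by cohort. Rn45s stood at 14332 CPM or more in the non-competent pools and at 9925 CPM or less in the competent pools. The sum was 2861 to 3235 CPM in the non-competent pools and 3066 to 3309 CPM in the competent pools.

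PND 16 small vs. PND 13 gave no call among the 47 nucleolar genes by edgeR, where 0.373% of all genes were called. At an unadjusted p under 0.05 there were 7, all higher in PND 16 small (Dkc1, Ncl, Nol4, Nolc1, Nop58, Rrp8 and Utp6), and DESeq2 called 1 gene, Nol4. In PND 16 large vs. PND 13, 7 were called (13.3% of all genes), 1 higher (3.52% of all genes) and 6 lower (9.8%). In PND 40 vs. PND 13, 8 were called (18.9% of all genes), 1 higher (6.31%) and 7 lower (12.6%). PND 16 large vs. PND 16 small gave 2 calls (6.19% of all genes), both lower (4.76%). In PND 40 vs. PND 16 small there were 7 (17.2% of all genes), with 1 higher (6.89%) and 6 lower (10.3%). PND 40 vs. PND 16 large gave 1 (3.66% of all genes), which was higher (2.34%). Competent vs. non-competent oocytes gave 7 calls (15% of all genes), 1 higher (3.78%) and 6 lower (11.2%). The share of nucleolar genes called, from 0% to 17% over the 7 comparisons, was thus near that of all genes, from 0.373% to 18.9%, and the count itself does not set them apart. Most calls were downward, as among all genes in the same comparisons, except in PND 40 vs. PND 16 large.

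With the adjusted p alone and no fold criterion, 21 of the 47 genes passed in PND 40 vs. PND 13 (33.1% of all genes), 14 higher (29.8%, against 16.3% of all genes) and 7 lower (14.9%, against 16.7%). In competent vs. non-competent oocytes 15 passed (30.7% of all genes), 8 higher (17%, against 14.2%) and 7 lower (14.9%, against 16.5%). These shares are not matched for level. The median level was 44.9 CPM over the 47 genes and 15.3 CPM over all genes tested. The 7 lower genes in PND 40 vs. PND 13 were also the 7 called at 1.5-fold. Of the 14 higher genes, which included the name matches Nol4 and Nol4l, only Nol4 reached 1.5-fold. Changes past the adjusted p but under 1.5-fold were thus 13 higher and 0 lower in PND 40 vs. PND 13, and 7 higher and 1 lower in competent vs. non-competent oocytes. Such small changes were more often upward among all genes too, at 10% higher and 4.15% lower in PND 40 vs. PND 13 and at 10.4% and 5.32% in competent vs. non-competent oocytes.

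**Figure D2:**
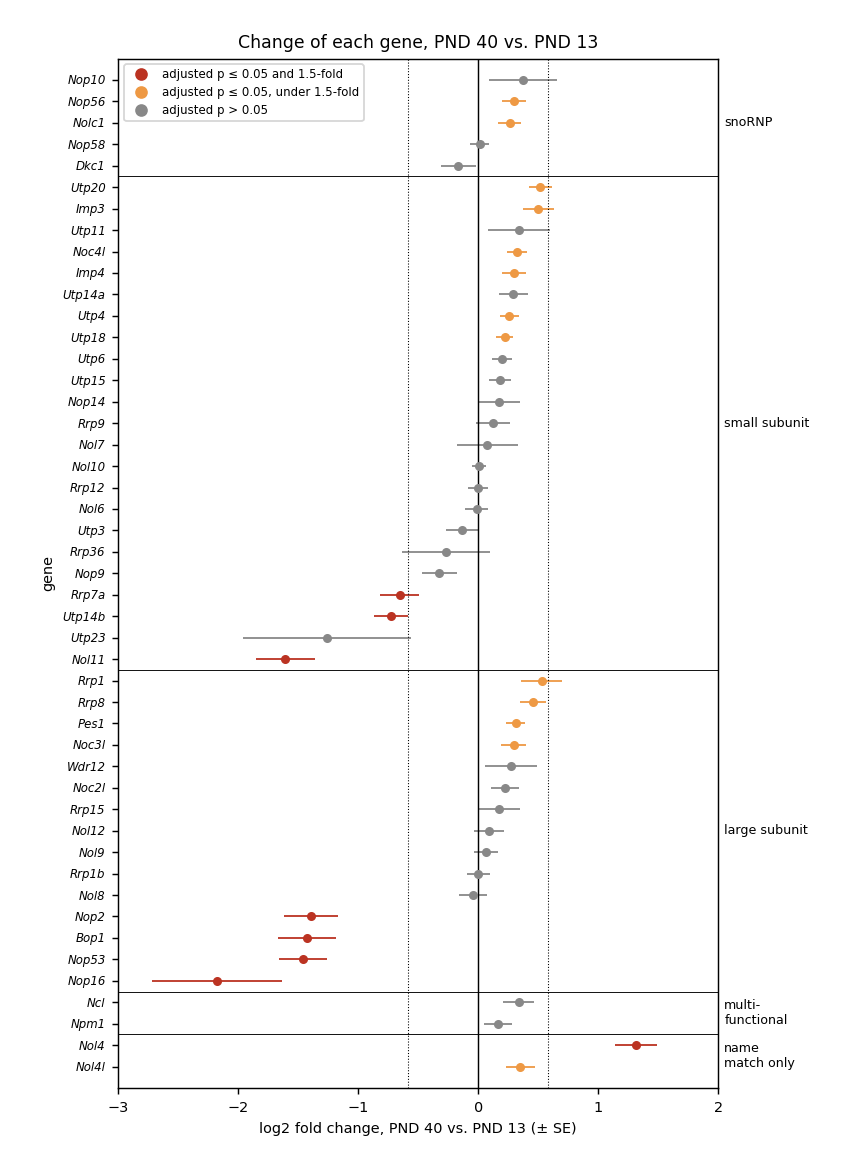
Log2 fold change of each of the 47 genes tested in PND 40 vs. PND 13, grouped by role, with horizontal bars for the SE and dotted lines at 1.5-fold. The 7 genes called lower lie at -0.66 or below, and most others lie between 0 and 0.53.

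**Figure D3:**
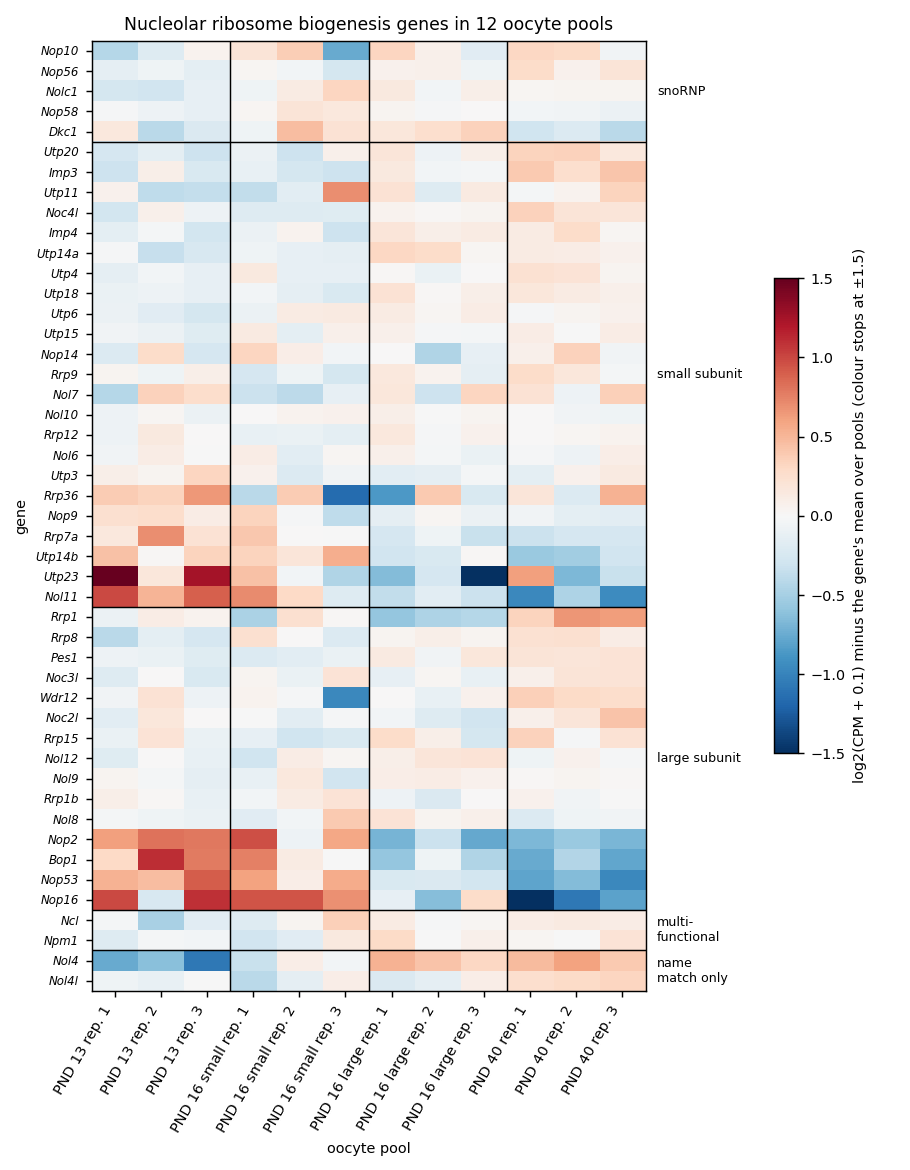
Level of the 47 genes tested in the 12 pools, as log2(CPM + 0.1) minus the mean of the gene, grouped by role and ordered by the change in PND 40 vs. PND 13. The blocks of red in the PND 13 and PND 16 small columns that turn to blue in the PND 16 large and PND 40 columns belong to Nol11, Nop2, Bop1, Nop53 and Nop16.

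Among snoRNP genes, Fbl had almost no counts. Fibrillarin, its product, is the methyltransferase of the box C/D snoRNPs. Fbl had 0 to 13 counts per pool, 0.421 ± 0.180 CPM at PND 13 and 0.245 ± 0.203 CPM at PND 40 (SD, n = 3), with overlapping cohorts and no test. In the annotation 19.7% of the 50-base windows of its transcripts also occur in other genes, and how reads shared between genes were counted is not given in the sources used here. Whether the low count is the RNA level in oocytes or an effect of counting was not tested, and the protein was not measured. The fibrillarin-like gene Fbll1 had at most 1 count in any pool. The box C/D partners Nop56 and Nop58 were measured at 41.3 to 50.7 CPM and 64.4 to 74.1 CPM across cohort means. Nop56 was higher at PND 40 than at PND 13 (log2 fold change 0.30, SE 0.10, adjusted p = 0.0372, edgeR), under 1.5-fold. Of the 50-base windows of Nop56 18.6% also occur in other genes.

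Dkc1 encodes dyskerin, the pseudouridine synthase of the box H/ACA snoRNPs. It lies on chromosome X at chrX:75095854-75109777 of GRCm38. Its level was 154, 105 and 119 CPM in the PND 13 pools and 132, 192 and 161 CPM in the PND 16 small pools. It was 156, 165 and 176 CPM in PND 16 large and 113, 120 and 105 CPM at PND 40. Both PND 16 cohorts lay above PND 40 in every pool, while PND 13 overlapped PND 16 small and PND 40 and lay just under PND 16 large. The log2 fold change was -0.56 (SE 0.14, adjusted p = 0.0371, edgeR) in PND 40 vs. PND 16 large and -0.52 (SE 0.14, adjusted p = 0.0157, edgeR) in PND 40 vs. PND 16 small, both under 1.5-fold. Dkc1 was the only nucleolar gene that passed the adjusted p as lower in PND 40 vs. PND 16 large (3.24% of all genes). In neither comparison did Dkc1 pass the adjusted p under every alternative run.

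Nolc1, a chaperone of both snoRNP classes, was lowest at PND 13. Its level was 102, 101 and 113 CPM there, and 118 to 155 CPM in all 9 other pools. It passed the adjusted p in PND 16 large vs. PND 13 (log2 fold change 0.29, SE 0.09, adjusted p = 0.0363, edgeR) and in PND 40 vs. PND 13 (0.26, SE 0.09, adjusted p = 0.0446, edgeR). Without the 3 pools high in granulosa markers these were 0.35 and 0.32, with adjusted p of 0.135 and 0.151. None of the 5 snoRNP genes tested was called at 1.5-fold in any comparison.

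Of the 23 genes of the small subunit, 3 were called in PND 40 vs. PND 13 (13%), all lower. Of all genes 12.6% were called lower and 18.9% in either direction. Nol11, whose product links transcription of ribosomal DNA to early processing of the precursor, spans chr11:107166663-107189381 on GRCm38. Its level was 14.9, 10.7 and 14 CPM at PND 13 and 12.3, 9.24 and 6.52 CPM in PND 16 small. It was 5.77, 6.67 and 5.97 CPM in PND 16 large and 3.77, 5.38 and 3.82 CPM at PND 40. The PND 13 and PND 40 pools were well apart, and PND 16 small replicate 3 fell within the range of PND 16 large. Of the bases in the exons of Nol11 8.16% overlap Gm11715 on the opposite strand, and 7.11% of its 50-base windows occur there. The log2 fold change was -1.61 (SE 0.25, adjusted p = 0.000358, edgeR) in PND 40 vs. PND 13 and -1.11 (SE 0.21, adjusted p = 0.00146, edgeR) in competent vs. non-competent oocytes. It was -1.10 in PND 16 large vs. PND 13 (adjusted p = 0.00541), and -0.80 with an adjusted p of 0.170 without the 3 pools high in granulosa markers, where the call was lost.

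Utp14b is an autosomal copy of the X-linked Utp14a, a small subunit processome protein, and is known for its need in male germ cells. Its level was 47.4, 35.2 and 44.0 CPM at PND 13 and 43.8, 39.4 and 50.8 CPM in PND 16 small. It was 28.4, 29.7 and 35.2 CPM in PND 16 large and 23.6, 24.3 and 28.6 CPM at PND 40. The log2 fold change was -0.73 (SE 0.14, adjusted p = 0.00186, edgeR) in PND 40 vs. PND 13 and -0.62 (SE 0.11, adjusted p = 0.00101, edgeR) in competent vs. non-competent oocytes. In RefSeq Utp14b starts 615 bases downstream of the start of Acsl3, on the same strand and within that gene, and in GENCODE the 2 share 244 bases of exon. Acsl3, a fatty acid CoA ligase, moved the other way (log2 fold change 0.52 in PND 40 vs. PND 13, adjusted p = 0.00474, edgeR).

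Utp14a went in the opposite direction from its copy. Its level was 22.4, 17.9 and 19.2 CPM at PND 13 and 21.7, 20.9 and 20.6 CPM in PND 16 small, against 28.1, 27.3 and 23.1 CPM in PND 16 large and 24.7, 24.4 and 23.7 CPM at PND 40. Every competent pool was above every non-competent pool (log2 fold change 0.30, SE 0.09, adjusted p = 0.0178, edgeR), under 1.5-fold. The ratio of Utp14b to Utp14a counts was 1.89 to 2.47 in the non-competent pools and 0.957 to 1.52 in the competent pools.

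Rrp7a, another processome protein, was the third small subunit gene called in PND 40 vs. PND 13, at 23.7 ± 5.20 CPM in PND 13 and 15.1 ± 0.395 CPM at PND 40 (SD, n = 3). Its log2 fold change was -0.66 (SE 0.17, adjusted p = 0.00833, edgeR). Of the bases in its exons 12.5% overlap Serhl on the opposite strand, and 17.1% of its 50-base windows occur in other genes. Utp23 was called in PND 16 large vs. PND 13 alone (log2 fold change -2.17, adjusted p = 0.0441, edgeR), on 2 to 30 counts per pool, and the call was lost on leaving out any of 5 of the 6 pools compared. Without the 3 pools high in granulosa markers it was -1.14 with an adjusted p of 0.550.

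The increases in the small subunit group were smaller. In PND 40 vs. PND 13, 6 of the 23 passed the adjusted p as higher (26.1%, against 16.3% of all genes, not matched for level), all under 1.5-fold. They were Utp20, Imp3, Noc4l, Imp4, Utp4 and Utp18, which were named after their values were seen. Utp20, a large scaffold protein of the processome, was at 198, 214 and 191 CPM in the PND 13 pools and 299, 301 and 264 CPM in the PND 40 pools. These pools did not overlap (log2 fold change 0.52, SE 0.10, adjusted p = 0.00165, edgeR), and the PND 16 small pools, at 223, 191 and 250 CPM, overlapped PND 13. Imp3, which holds the processome's guide snoRNA on the precursor, was at 17.7, 23.4 and 18.9 CPM at PND 13 and 28.9, 26.4 and 29.5 CPM at PND 40 (log2 fold change 0.50, SE 0.13, adjusted p = 0.00898, edgeR).

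Utp18 had the smallest of these changes. All 6 competent pools lay between 154 and 176 CPM and all 6 non-competent pools between 129 and 147 CPM (log2 fold change 0.23, SE 0.05, adjusted p = 0.00518, edgeR). Per kb of its longest transcript, Utp4 had the highest mean level of the 49 genes at 139 CPM per kb, followed by Nol10 at 61.0, Utp18 at 58.2 and Noc4l at 56.9. Nol10, at 179 ± 7.82, 189 ± 4.24, 190 ± 6.36 and 180 ± 5.19 CPM (SD, n = 3) in the 4 cohorts in order of age and size, did not pass the adjusted p in any comparison.

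In the large subunit group 4 of 15 genes were called in PND 40 vs. PND 13 (26.7%), all lower. Of all genes 12.6% were called lower and 18.9% in either direction. Nop2 encodes a methyltransferase of the large subunit's RNA and lies at chr6:125131909-125144753 on GRCm38. Its level was 16.4, 18.9 and 18.6 CPM at PND 13, 21.0, 10.1 and 16.1 CPM in PND 16 small, 6.55, 8.56 and 6.25 CPM in PND 16 large, and 6.65, 7.25 and 6.61 CPM at PND 40. All competent pools were under all non-competent pools. Its log2 fold change was -1.27 (SE 0.16, adjusted p = 9.59e-05, edgeR) in competent vs. non-competent oocytes and -1.14 (SE 0.23, adjusted p = 0.00743, edgeR) in PND 16 large vs. PND 16 small, mice of the same age. PND 16 large and PND 40 lay close together.

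Bop1, Pes1 and Wdr12 encode the PeBoW complex, which the precursor of the large subunit needs for its maturation. Bop1 is at chr15:76452989-76477277 on GRCm38. Its level was 21.6, 38.0 and 30.2 CPM at PND 13 and 29.7, 19.1 and 17.4 CPM in PND 16 small. It was 11.7, 16.7 and 12.8 CPM in PND 16 large and 10.3, 12.9 and 10.2 CPM at PND 40. The highest competent pool, PND 16 large replicate 2, was just under the lowest non-competent pool, PND 16 small replicate 3. Bop1 changed by a log2 fold of -1.43 (SE 0.24, adjusted p = 0.000736, edgeR) in PND 40 vs. PND 13 and -1.07 (SE 0.19, adjusted p = 0.000887, edgeR) in competent vs. non-competent oocytes. Without the 3 pools high in granulosa markers these values were -1.77 and -1.19. The first of them sets PND 40 against PND 13 replicate 2 alone, which at 38.0 CPM had the highest Bop1 of all pools.

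Neither partner of Bop1 was called lower. Pes1 was at 66.2, 65.2 and 61.4 CPM at PND 13, 60.3, 62.5 and 64.8 CPM in PND 16 small, 76.7, 67.1 and 78.1 CPM in PND 16 large and 79.6, 79.4 and 80.2 CPM at PND 40. Every competent pool was above every non-competent pool (log2 fold change 0.28, SE 0.06, adjusted p = 0.00432, edgeR), under 1.5-fold. Of the 50-base windows of Pes1 23.3% also occur in other genes, among them pseudogenes. Wdr12 was at 12 ± 1.42, 9.90 ± 3.45, 11.6 ± 0.752 and 14.5 ± 0.525 CPM (SD, n = 3) in the cohorts by age and size, and did not pass the adjusted p in any comparison.

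Ratios of counts within a pool do not depend on how pools are scaled. The ratio of Bop1 to Pes1 was 0.326, 0.582 and 0.491 in the PND 13 pools, 0.493, 0.306 and 0.268 in PND 16 small, 0.152, 0.249 and 0.164 in PND 16 large and 0.130, 0.162 and 0.127 at PND 40. The competent and the non-competent pools did not overlap, with medians of 0.157 and 0.409. The 6 pairs tested were chosen after their values were seen, so the tests carry little weight beside the values. Between competent and non-competent pools the exact two-sided permutation test gave p = 0.00216, the smallest that 924 splits allow, for Bop1/Pes1, for Bop1/Wdr12 and for Utp14b/Utp14a (0.00433 each after Benjamini-Hochberg adjustment over the 6 pairs). For Wdr12/Pes1 it gave p = 0.981 (exact permutation), with medians of 0.169 and 0.183. The other pairs gave p = 0.0152 for Nop58/Nop56 (adjusted 0.0227) and 0.288 for Dkc1/Nop10 (adjusted 0.345, exact permutation). In PND 40 vs. PND 13 no p under 0.1 is possible with 3 pools each.

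**Figure D4:**
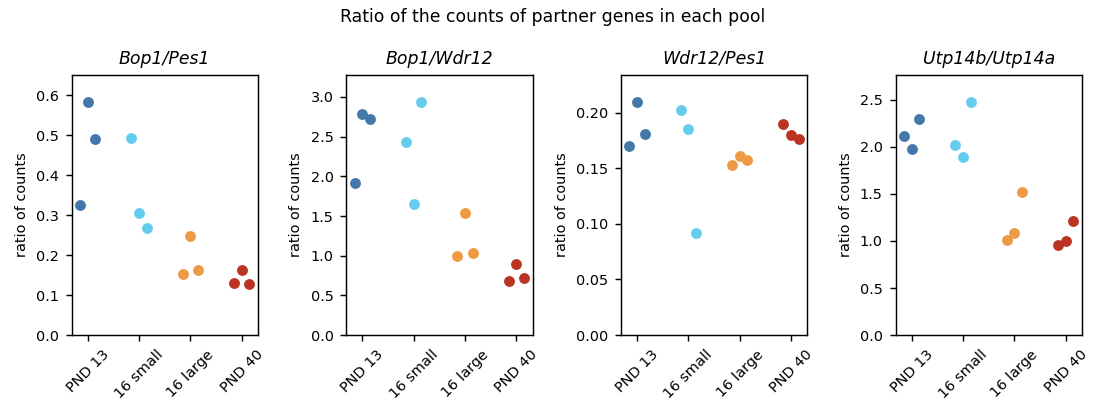
Ratio of the counts of partner genes in each pool, by cohort. Bop1/Pes1 and Bop1/Wdr12 are lower in all competent pools than in all non-competent pools, as is Utp14b/Utp14a, while Wdr12/Pes1 overlaps throughout.

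Nop53, which brings the nuclear exosome to the large subunit precursor for trimming, was at 10.9, 10.5 and 14.2 CPM at PND 13 and 11.5, 8.11 and 11.2 CPM in PND 16 small. It was 6.42, 6.47 and 6.25 CPM in PND 16 large and 4.33, 4.78 and 3.82 CPM at PND 40. PND 16 large pools lay between the non-competent pools and the PND 40 pools with no overlap. On the log2 scale the change was -1.46 (SE 0.20, adjusted p = 0.000164, edgeR) in PND 40 vs. PND 13 and -1.05 (SE 0.18, adjusted p = 0.000631, edgeR) in competent vs. non-competent oocytes. In PND 16 large vs. PND 16 small it was -0.68 (adjusted p = 0.0372, edgeR), a call lost on leaving out any of 5 of the 6 pools. In PND 16 large vs. PND 13 it was -0.89 (adjusted p = 0.00536, edgeR), and -0.71 with an adjusted p of 0.0811 without the 3 pools high in granulosa markers, where that call was lost.

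Nop16, a large subunit assembly factor, was at the low end of detection. Its level was 2.15, 0.860 and 2.33 CPM at PND 13 and 2.09, 2.09 and 1.72 CPM in PND 16 small. It was 0.941, 0.631 and 1.27 CPM in PND 16 large and 0.172, 0.438 and 0.551 CPM at PND 40, where the pools held 4, 11 and 15 counts. PND 13 replicate 2 fell within the range of PND 16 large. On the log2 scale the change was -2.17 (SE 0.54, adjusted p = 0.00783, edgeR) in PND 40 vs. PND 13 and -2.32 (SE 0.54, adjusted p = 0.00624, edgeR) in PND 40 vs. PND 16 small. Without the 3 pools high in granulosa markers the first became -1.13 with an adjusted p of 0.334, and the second -2.27 with an adjusted p of 0.0150. In competent vs. non-competent oocytes it was -1.48 (adjusted p = 0.0152, edgeR), and -1.20 with an adjusted p of 0.143 without these pools.

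Rrp1, an early large subunit factor, was the nucleolar gene called between the competent cohorts. It was at 10.02, 10.9 and 11.1 CPM in PND 16 large and at 19.0, 23.9 and 23.3 CPM at PND 40. PND 13 pools lay between them at 14.1, 16.2 and 15.6 CPM, and PND 16 small pools, at 10.8, 17.7 and 15.2 CPM, overlapped PND 16 large. The log2 fold change in PND 40 vs. PND 16 large was 1.05 (SE 0.17, adjusted p = 0.00417, edgeR), a 2.07-fold increase, and the only call in that comparison. Rrp1 was also called in PND 40 vs. PND 16 small (log2 fold change 0.60, adjusted p = 0.0184, edgeR), a 1.51-fold difference that fell under the criteria in 3 of the 6 leave-one-out fits. Its paralog Rrp1b was at 53.0 to 71.1 CPM in the 12 pools and did not pass the adjusted p in any comparison. Of the rest of the large subunit group, Rrp8, Pes1 and Noc3l passed the adjusted p as higher in PND 40 vs. PND 13, under 1.5-fold.

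**Figure D5:**
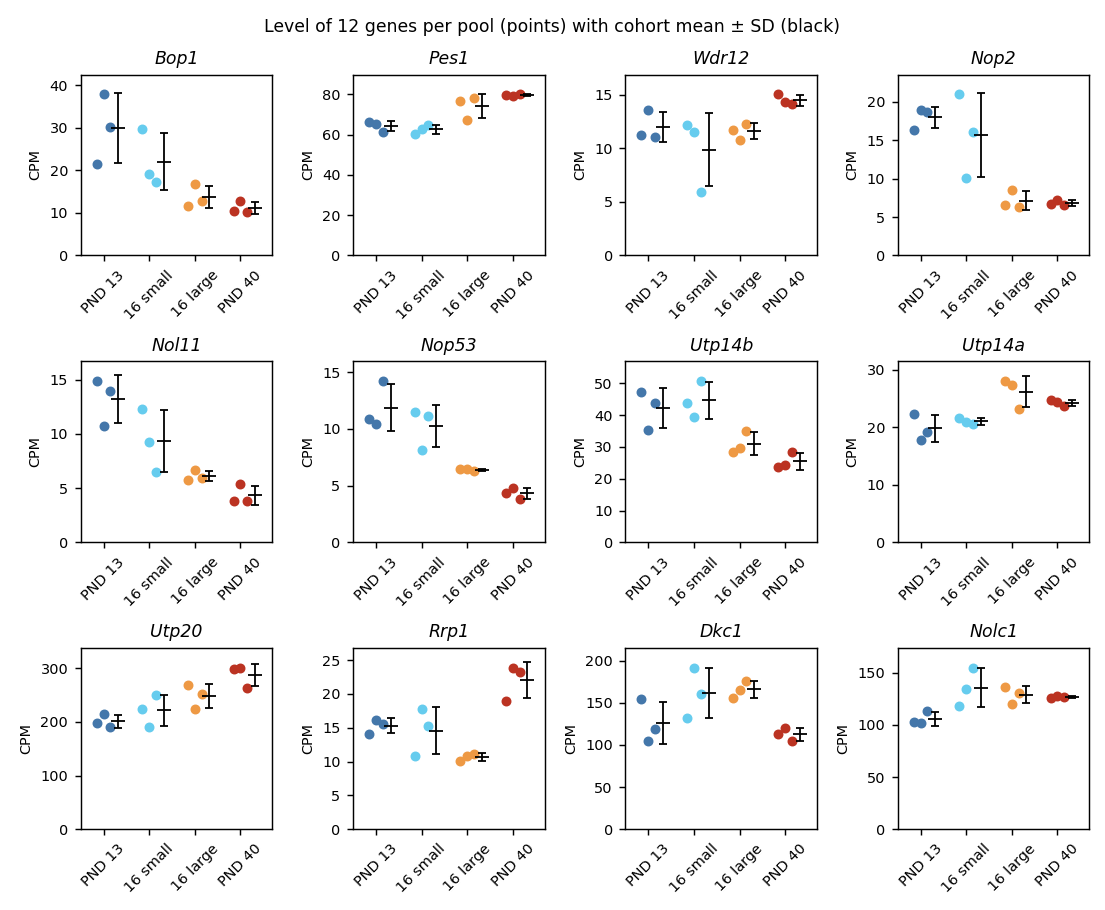
CPM of 12 nucleolar genes in each pool (points) with the mean ± SD of each cohort (black, n = 3). Bop1, Nop2, Nol11, Nop53 and Utp14b decline from the non-competent to the competent cohorts, Pes1, Utp14a and Utp20 are higher in the competent cohorts, Rrp1 is highest at PND 40 and Dkc1 is higher in the PND 16 cohorts than at PND 40.

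Neither of the abundant multifunctional genes of the nucleolus was called. Ncl (nucleolin, which binds nascent precursor RNA) was at 322 ± 50.6, 398 ± 77.5, 386 ± 18.9 and 407 ± 4.02 CPM (SD, n = 3) in the 4 cohorts by age and size. Npm1 (nucleophosmin, a chaperone of the nucleolus) was at 74.9 ± 4.80, 74.4 ± 12.1, 86.5 ± 8.98 and 83.9 ± 6.54 CPM in the same order. Neither passed the adjusted p in any comparison. Of the 50-base windows of Npm1 24.3% occur in other genes, mostly processed copies, and its value is uncertain for that reason.

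Nol3, Nol4 and Nol4l were included by their names, and their products are not established ribosome assembly factors. Nol4 was lowest at PND 13 and was the only gene of the 49 called higher in more than 2 comparisons. Its level was 5.59, 6.10 and 4.46 CPM at PND 13, 7.53, 10.1 and 9.25 CPM in PND 16 small, 13.6, 12.8 and 11.8 CPM in PND 16 large and 13.3, 14.5 and 12.5 CPM at PND 40. PND 13, PND 16 small and the competent cohorts formed 3 ranges without overlap. These were log2 fold changes of 1.31 (SE 0.18, adjusted p = 0.000145, edgeR) in PND 40 vs. PND 13 and 0.87 (SE 0.18, adjusted p = 0.00272, edgeR) in competent vs. non-competent oocytes.

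The rest of the ribosome assembly pathway was read from a list of 125 other genes, all tested. In PND 40 vs. PND 13, 25 of them (20%) were called, 3 higher and 22 lower, and in competent vs. non-competent oocytes 20 (16%), all lower. The count was 19 in PND 16 large vs. PND 13 and 12 in PND 16 large vs. PND 16 small, all lower. It was 20 in PND 40 vs. PND 16 small, with 2 higher and 18 lower, and 1 in PND 40 vs. PND 16 large, which was lower. The share called was 9.6% in PND 16 large vs. PND 16 small and 0.8% in PND 40 vs. PND 16 large, and 15.2% to 20% in the 4 other comparisons with calls, and nothing is read from it beside the shares of all genes given above. The median log2 fold change over the 125 was 0.04 in PND 40 vs. PND 13, beside 0.0044 over all genes.

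By role, the share called lower in PND 40 vs. PND 13 was 25% of 12 other snoRNP factors and 26.7% of 15 nuclear exosome genes. It was 13.3% of 45 other large subunit factors and 10.8% of 37 other small subunit factors. Of all genes 12.6% were called lower and 18.9% in either direction. Of the 16 genes of RNA polymerase I and its factors, 5 were called (31.2%), all lower. Among them Taf1c, a subunit of the factor that selects the ribosomal DNA promoter, was at 26.0, 25.0 and 24.7 CPM at PND 13 and 5.79, 7.61 and 6.76 CPM at PND 40. PND 16 small pools were at 25.1, 14.7 and 14.1 CPM and PND 16 large pools at 9.49, 9.90 and 10.7 CPM (log2 fold change in PND 40 vs. PND 13 -1.91, SE 0.20, adjusted p = 4.40e-05, edgeR). Mdn1, the ATPase that strips assembly factors from the large subunit precursor, had the largest decrease of the list. It was at 96.5, 78.5 and 120 CPM at PND 13, 88.5, 44.5 and 75.9 CPM in PND 16 small, 29.3, 27.9 and 27.5 CPM in PND 16 large and 20.5, 24.3 and 28.8 CPM at PND 40. No competent pool reached a non-competent one (log2 fold change in competent vs. non-competent oocytes -1.67, SE 0.18, adjusted p = 4.29e-05, edgeR).

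C1d, a cofactor of the nuclear exosome, fell with them (log2 fold change -1.79 in PND 40 vs. PND 13, adjusted p = 0.000742, edgeR), and Mak16, a large subunit factor of 0.833 CPM in competent oocytes, fell by 1.60 on the log2 scale in competent vs. non-competent oocytes (adjusted p = 0.00118, edgeR). The 3 genes of the list called higher in PND 40 vs. PND 13 were Gar1 (a core protein of the box H/ACA snoRNPs, as is Dkc1), Urb1 and Ddx18 (both large subunit factors), with log2 fold changes of 0.71, 0.68 and 0.62 (adjusted p = 0.00347, 0.00897 and 0.00201, edgeR).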

How the data were processed

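RNA-Seq of 12 oocyte pools was analysed, 3 per cohort, grouped by the deposited sample labels. The authors depleted ribosomal RNA, prepared directional libraries and read 50 bases on a HiSeq. The submitters' processing notes name FastQC, STAR, HTSeq, DESeq, DESeq2, HOMER and mm10 without versions or roles, and the strand setting of the counting is not given in the sources used here. The values used were raw counts per gene, deposited by the authors without normalization. A deposited log2 table of the same counts was not used.

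Genes were kept by filterByExpr (minimum count 10, 0.415 CPM), scaled by TMM and fitted with edgeR 4.0.16 (R 4.3.3) by robust quasi-likelihood, 1 model of 4 cohorts for pairwise comparisons and 1 of 6 vs. 6 pools for competence, with Benjamini-Hochberg adjustment over 13943 genes. SE is approximate and was derived from the fold change and its F statistic. The scripts were tested on simulated data. Pools of a cohort differed beyond sampling noise (chi-square per gene 9.40 to 51.8). How the mice of a cohort were divided over its pools is not given in the sources used here, so p-values measure the spread between pools. Counts carry no molecular identifiers.

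The genes, role groups, pathway and marker lists were chosen with earlier results of these data known. Named genes were the 8 listed one by one in the rule, Rn45s, up to 3 called genes of largest change per direction and comparison, and from the pathway list up to 3 per direction in PND 40 vs. PND 13 and in competent vs. non-competent oocytes. Others were named after their values were seen. Coordinates and transcript lengths are from GENCODE on GRCm38. Alternatives were DESeq2 1.42.0, RLE or total count scaling, no filter, no fold criterion, only the cohorts compared, a replicate block, each pool left out, and, added after seeing the data, 3 pools left out.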

Additional observations from a re-analysis of the deposited data

Results flagged for a closer look

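Over groups of 6 pools, 32 sets of values were examined for a single pool far from the others by Dixon's test, and chance alone flags about 1 in 20. The test picked out 3. Pes1 in PND 16 large replicate 2 was at 67.1 CPM, while the other competent pools were at 76.7 to 80.2 CPM. Wdr12 in PND 16 small replicate 3 was at 5.93 CPM, while the other non-competent pools were at 11.1 to 13.6 CPM. Fbl in PND 40 replicate 1 was at 0.472 CPM, with 11 counts, while the other competent pools were at 0.0796 to 0.184 CPM. None of these was tested further.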

How the results depend on the processing

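Without the 1.5-fold criterion the number of nucleolar genes called was 15 in PND 16 large vs. PND 13, 21 in PND 40 vs. PND 13, 4 in PND 16 large vs. PND 16 small, 15 in PND 40 vs. PND 16 small, 2 in PND 40 vs. PND 16 large and 15 in competent vs. non-competent oocytes. DESeq2 gave 1 call in PND 16 small vs. PND 13. For PND 16 large vs. PND 16 small, with 2 calls, there was 1 with no filter, 1 with only the cohorts compared and 5 without the 3 pools high in granulosa markers. The cause was not tested. Apart from these, the replicate block given below and single pools left out, counts stayed within 1.5 times the value reported. With 1 pool left out at a time there were 0 to 1 calls in PND 16 small vs. PND 13, 5 to 6 in PND 16 large vs. PND 13, 8 to 9 in PND 40 vs. PND 13, 1 to 3 in PND 16 large vs. PND 16 small, 7 to 9 in PND 40 vs. PND 16 small, 1 in PND 40 vs. PND 16 large and 6 to 7 in competent vs. non-competent oocytes. The 1 call in PND 16 small vs. PND 13 came without PND 16 small replicate 1. In PND 16 large vs. PND 16 small the count was 1 without PND 16 large replicate 1 or replicate 2 and 3 without PND 16 small replicate 2. Rn45s, Bop1, Dkc1, Nol4, Nol11, Nolc1, Nop2, Nop16, Nop53, Pes1, Rrp1 and Utp23 were followed through the alternatives, in the comparisons where they passed the adjusted p. None of them changed direction under any alternative run. Among changes under 1.5-fold, those of Dkc1 and Nolc1 did not pass the adjusted p under every alternative. The same held for Pes1 and Rrp1 in PND 40 vs. PND 13, Rrp1 in PND 16 large vs. PND 13 and Nol4 in PND 40 vs. PND 16 small. The other genes named were not followed in this way. Leaving out 2 of the 3 PND 13 pools leaves 1, which is then assumed to vary like the other cohorts.

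Samples with the same replicate number did not deviate together (mean correlation -0.0516, range -0.442 to 0.0753), and 3 of the 12 pools correlated best with their own number. With the replicate block there were 0 calls in PND 16 small vs. PND 13, 6 in PND 16 large vs. PND 13, 8 in PND 40 vs. PND 13, 1 in PND 16 large vs. PND 16 small, 8 in PND 40 vs. PND 16 small, 1 in PND 40 vs. PND 16 large and 7 in competent vs. non-competent oocytes.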
